A study of Mus musculus with 12 samples.

Results

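Primary brain endothelial cells (BECs) line the vessels of the brain and form the blood-brain barrier together with pericytes and astrocytes. The 3 libraries described here are the *Cort*+/+ cultures kept under normoxia and normal glucose (NX/NG), out of 12 samples in the series, chosen by their labels (genotype WT, treatment NM). The series also holds *Cort*-/- cultures and cultures exposed to oxygen-glucose deprivation, and no genotype or environment was compared here. The mice were C57BL/6 and 8 weeks old, and both *Cort* alleles, which encode the neuropeptide cortistatin, were intact. Each replicate was a pool of cells from 3 mice, enriched with puromycin for 60 h, grown on collagen and fibronectin, and held for 24 h in NX/NG (21% oxygen, 5.5 mM glucose). The labels name a stroke model (MCAO) as the disease state of every sample, these untreated cultures included. A replicate is a separate culture, so the SD given after each mean (n = 3) covers the spread between pools and not between single mice.

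Brain endothelium is set apart from other endothelium by tight junctions sealed with claudin-5, by nutrient carriers such as the glucose transporter GLUT1, by efflux pumps and by a low rate of vesicle transport. These properties depend on Wnt signals that reach the vessel from neural cells. Endothelial cells grown without those neighbours keep their pan-endothelial genes more readily than the carriers and Wnt targets of the barrier. An RPKM value, the unit used throughout, is the number of reads per 1000 bases of gene length and per 1000000 of the library's scaling total, and levels of different genes were compared only on this scale per length. Where 3 values follow a gene they belong to replicates 1, 2 and 3 in that order.

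The libraries held 12386048, 12389289 and 12387734 reads on genes, totals that differed by 0.0262% of their mean, and the sources used here give no reason for this near equality. The deposited values imply scaling totals of about 12260000, 13140000 and 11530000 in their place. Of the 29965 genes read here, 1807 had no read in any of the 3 libraries. The mean reached 1 RPKM for 13746 genes, which is 45.9% of them. Among the 16787 genes that carry a protein-coding entry in GENCODE vM21, 10873 reached 1 RPKM (64.8%), 3934 reached 10 and 290 reached 100. Counts of list members given below are to be read beside these. Replicates agreed across genes, with Pearson's r of log2(RPKM + 0.1) between 0.959 and 0.962 over the 13746 genes, a description in which genes are not independent replicates. The 18S ribosomal RNA gene *Rn18s-rs5* took 13.1, 7.64 and 15.3% of the reads, lowest in replicate 2. *Xist* had 3, 5 and 1 reads and the Y-linked *Ddx3y* had 13.4, 13.7 and 14.02 RPKM, and the values were alike in the 3 pools.

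The endothelial markers of the study were present in every library. *Cldn5*, which encodes the tight junction strand protein claudin-5, was at 106, 108 and 132 RPKM (115 ± 14.2, SD, n = 3). *Pecam1*, the junctional adhesion molecule CD31, was at 153, 152 and 205 RPKM (169.9 ± 30.8). *Tjp1*, the scaffold ZO-1 that ties junction strands to actin, was at 61.5, 54.4 and 79.1 RPKM (65.0 ± 12.7). All 3 were highest in replicate 3 on the deposited scale. They ranked 322, 208 and 593 among all genes of the table, and their summed level was 320.4, 314 and 416 RPKM (350.2 ± 57.3). The ratios to *Cdh5*, the endothelial cadherin gene, held more steadily than the levels, at 0.231 ± 0.0114 for *Cldn5*, 0.338 ± 0.0121 for *Pecam1* and 0.129 ± 0.00545 for *Tjp1*. The order of the replicates depended on the scaling. On the deposited scale the median gene had a log2 ratio of 0.01 between replicates 3 and 2, and after each library was set to an equal sum of RPKM over all rows, ribosomal RNA included, it was -0.48. That rescaling put *Cldn5*, *Pecam1*, *Cdh5* and *Cd93* highest in replicate 2, as it did 3708 of the 3934 protein-coding genes at 10 RPKM or more, and *Tjp1* stayed highest in replicate 3. With the total reads on genes as the scale the median was -0.18, and with an equal sum over protein-coding genes it was -0.02, and under both these 5 genes stayed highest in replicate 3. The orders of replicates given from here on are those of the deposited values.

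The start-site sequences of these marker genes are shown because the cultures are named by them. *Cldn5* lies at chr16:18776847-18778262 of GRCm38 on the plus strand, *Pecam1* at chr11:106654217-106750628 on the minus strand and *Tjp1* at chr7:65296165-65527781 on the minus strand, all in GENCODE vM21. RefSeq's table for GRCm38.p6 held a promoter for *Cldn5* and *Tjp1*, the latter at a start that lies within the longer GENCODE span. The 250 bases before each start are printed 5′ to 3′ on the gene's strand (plus for *Cldn5*, minus for *Tjp1*), with the motif CCAAT, read on either strand, in capitals.
*Cldn5*, chr16:18776597-18776846: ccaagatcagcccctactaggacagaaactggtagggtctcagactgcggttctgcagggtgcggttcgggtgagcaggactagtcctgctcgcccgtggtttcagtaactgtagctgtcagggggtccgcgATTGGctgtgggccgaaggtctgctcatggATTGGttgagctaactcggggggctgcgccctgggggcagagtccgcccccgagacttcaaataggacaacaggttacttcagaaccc
*Tjp1*, chr7:65371245-65371494: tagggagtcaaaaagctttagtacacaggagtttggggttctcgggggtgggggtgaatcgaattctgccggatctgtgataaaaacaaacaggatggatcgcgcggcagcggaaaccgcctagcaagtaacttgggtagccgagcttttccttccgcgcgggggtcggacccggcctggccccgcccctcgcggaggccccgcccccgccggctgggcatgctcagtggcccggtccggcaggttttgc
The *Cldn5* stretch holds CCAAT on the other strand, printed as ATTGG, at 118 and 88 bases before the start, and the *Tjp1* stretch holds none. The same motif was found in 37.5% of the 27025 genes with a promoter in that table, so it is common among promoters.

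The most abundant protein-coding transcripts were those of respiration, translation, matrix and the actin cytoskeleton. The mitochondrial *mt-Co1*, a core subunit of cytochrome c oxidase, led with 4089, 4062 and 4613 RPKM (4255 ± 311). *Eef1a1*, the factor that brings aminoacyl-tRNA to the ribosome, followed with 2366, 2292 and 2264 RPKM (2307 ± 52.5). *Fn1*, the gene of fibronectin, stood next with 2042, 2131 and 2335 RPKM (2169 ± 150.3). On this scale per length fibronectin thus stood close to *Eef1a1*. Processed pseudogenes of *Eef1a1*, *Tmsb4x*, *Ftl1*, *Actb* and *Gapdh* can take reads from their parent genes, so these levels are uncertain to that extent. *Tmsb4x*, whose peptide holds actin monomers in reserve, was at 1692, 1614 and 2029.8 RPKM and *Thbs1*, thrombospondin-1, at 1029.7, 1284 and 1232 RPKM. *Actb* reached 1181 ± 52.8 RPKM, the ferritin light chain gene *Ftl1* 1068 ± 65.0 RPKM, *Acta2* 993 ± 129 RPKM, the secreted phosphoprotein gene *Spp1* (osteopontin) 916 ± 113 RPKM and the intermediate filament gene *Vim* 878 ± 37.3 RPKM. The 10 highest protein-coding genes held 9.11% of the summed protein-coding RPKM, 539 genes held 50% of it and 5277 genes held 90%.

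**Figure D1:**
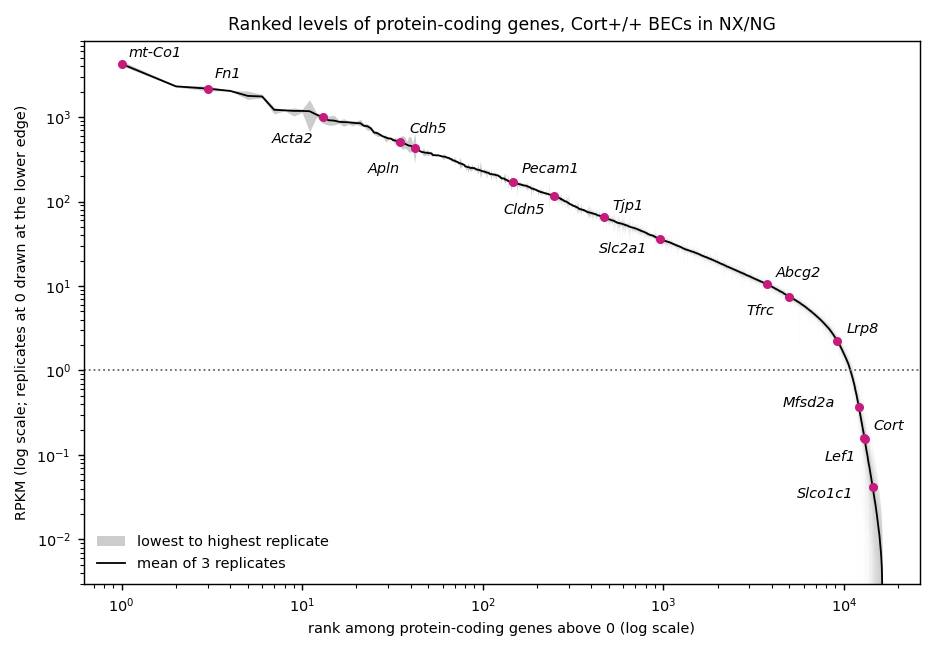
Mean RPKM (log scale) of protein-coding genes above 0 against their rank (log scale) in *Cort*+/+ BECs under NX/NG, with a grey band from the lowest to the highest of 3 replicates and a dotted line at 1 RPKM. Matrix and endothelial genes such as *Fn1* (2169) and *Cdh5* (502) stand in the upper range, while *Mfsd2a* (0.370) and *Slco1c1* (0.0412) lie under the line.

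Below them came a second tier of secreted and cytoskeletal products. *Lgals1* (galectin-1) was at 867 ± 39.7 RPKM, *S100a6* at 854 ± 60.4, *Sparc*, a collagen-binding matrix glycoprotein, at 847 ± 41.5 and *S100a11* at 788 ± 32.5. *Eef2* reached 736 ± 36.6 RPKM, the actin-binding *Tagln* 647 ± 48.5, the integrin beta-1 gene *Itgb1* 591 ± 7.83, the lysosomal protease gene *Ctsd* 575 ± 59.4 and the type IV collagen gene *Col4a1* 531 ± 31.0. Several rows of this tier overlap a neighbour. *Gm49369* (777 ± 72.0 RPKM) overlaps *Ctsd* on the same strand, and *Gm42674* overlaps *S100a4*, with a ratio of 1.26 ± 0.00356 between them. The prion-like gene *Prnd* (459 ± 113 RPKM) and the read-through gene *Prn* (456 ± 110.1 RPKM) overlap as well, and their ratio was 0.995 ± 0.00430. On the other strand, *Gm48529* (mean 504 RPKM) overlaps *Tagln*, *Gm29233* (1544) overlaps *Thbs1* and *Gm10252* (874) overlaps *Ftl1*. *Gm43109* (87.9) likewise overlaps *Vcam1*, and *Gm47118* (99.5) overlaps *Edn1*. The level of each gene in these pairs is uncertain.

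The very top of the table was held by non-coding rows. *Rn18s-rs5* was at 71662, 38949 and 89134 RPKM, lowest in replicate 2 and highest in replicate 3. The same order was seen in *AY036118*, in the leucyl-tRNA synthetase gene *Lars2* (1244, 669.6 and 1601 RPKM) and in the mitochondrial ribosomal RNA genes *mt-Rnr1* (1538, 908 and 1996) and *mt-Rnr2* (1482, 835 and 1995). The ratio to *Rn18s-rs5* stayed nearly fixed, at 0.143 ± 0.00626 for *AY036118*, 0.0175 ± 0.000402 for *Lars2* and 0.0215 ± 0.000852 for *mt-Rnr2*. *Lars2* therefore kept its ratio to ribosomal RNA between the replicates, unlike *Fn1*, *Eef1a1* and *Actb*, whose order of replicates was another. Of the 30 highest rows, 9 were shorter than 200 bases, a length at which few reads give a large RPKM. An unnamed row of 57 bases (*ENSMUSG00002076173*) stood at 16095, 15284 and 70948 RPKM from 11248, 11448 and 46645 reads. Rows under 200 bases took between 0.532% and 0.902% of the reads of a library but between 17.6% and 27.7% of its summed RPKM.

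One short row has an endothelial context. *Mir126a*, the hairpin of an endothelial microRNA, lies within *Egfl7* on chromosome 2, and its row had 13.4, 30.2 and 33.3 RPKM from 12, 29 and 28 reads. The host gene *Egfl7*, which encodes a secreted endothelial factor, was at 72.9, 83.9 and 97.1 RPKM. *Gm20532* overlaps *Egfl7* on the same strand at a mean of 128 RPKM, so the level of *Egfl7* is uncertain. Libraries from messenger RNA do not capture mature microRNAs, so the *Mir126a* row does not measure the mature form. Its few reads cannot be told from those of *Egfl7* or of *Mir126b* on the other strand. The mature product is shown because it is the regulatory sequence of this locus, from RefSeq (GRCm38.p6, chr2:26591402-26591423, plus strand), with the seed, bases 2 to 8, in capitals.
mmu-miR-126a-3p: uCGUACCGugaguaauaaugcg

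Pan-endothelial genes were expressed broadly. Of 45 identity genes, 42 reached 1 RPKM, 33 reached 10 and 9 reached 100, against 64.8% of all protein-coding genes at 1 RPKM. *Cdh5*, the adherens junction cadherin of endothelium, was the highest at 471, 443 and 592 RPKM (502 ± 79.4). *Cd93*, a C-type lectin receptor that binds matrix, was at 211, 220.5 and 283 RPKM. *Eng*, the co-receptor endoglin, was at 136, 203 and 174 RPKM. *Eng* was highest in replicate 2, whereas *Cdh5* and *Cd93* were highest in replicate 3. *Adgrl4* (182 ± 35.2 RPKM), the sialomucin gene *Emcn* (142 ± 17.3), *Mmrn2* (133 ± 12.8), *Adgrf5* (111 ± 21.2) and the adhesion gene *Esam* (111 ± 12.7) completed the group above 100 RPKM. The transcription factors of the lineage were present at lower levels, with *Erg* at 74.1 ± 15.2 RPKM, *Sox18* at 62.1 ± 10.6, *Sox7* at 27.0 ± 2.53, *Ets1* at 17.5 ± 3.26 and *Sox17* at 14.8 ± 2.56. *Vwf*, which encodes von Willebrand factor, was at 10.1, 14.9 and 8.48 RPKM.

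Several identity genes that were low mark other endothelial types. *Prox1*, the lymphatic master regulator, was at 0.0583 ± 0.0172 RPKM and *Lyve1*, a lymphatic hyaluronan receptor, at 1.55 ± 0.280. *Mmrn1* was seen as 0, 0 and 1 reads. *Nr2f2*, a venous factor, was at 4.93 ± 0.743 RPKM. HOX genes, which carry positional identity in the trunk, had 16 rows and none reached 1 RPKM, with a summed level of 2.67, 2.32 and 2.11 RPKM. Among 16 markers of fenestrated and peripheral endothelium, 10 lay under 1 RPKM, including *Gpihbp1* (0.193), *Fabp4* (0.0887), *Meox2* (0.0590) and *Stab2* (0.0401). The other 6 reached 1 RPKM, and 5 of them reached 10, led by the lipid phosphatase gene *Plpp1* (115 ± 16.1 RPKM), *Esm1* (37.3 ± 5.98), *Stab1* (24.9 ± 0.963) and *Plpp3* (22.3 ± 1.69). *Plvap*, the diaphragm protein of fenestrated vessels, was at 16.4, 26.0 and 15.8 RPKM, highest in replicate 2.

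**Figure D2:**
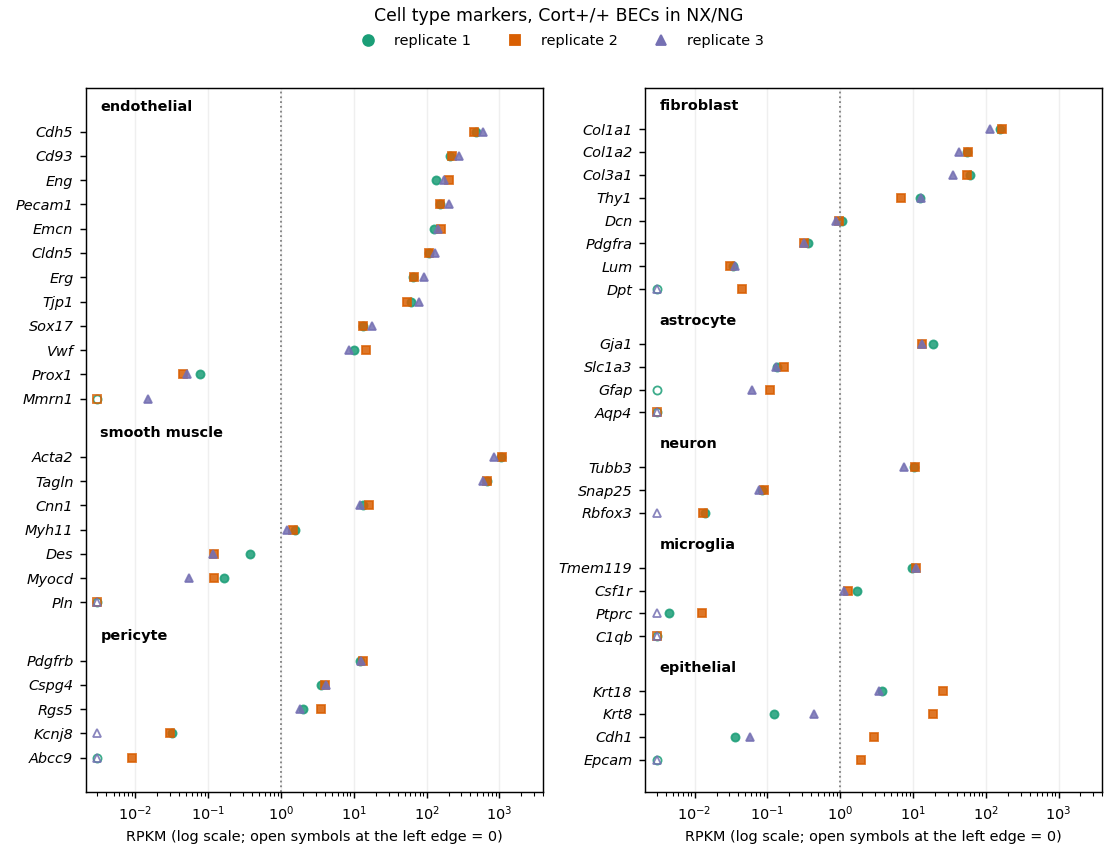
RPKM (log scale) of cell type markers in each of 3 *Cort*+/+ BEC libraries under NX/NG, with 1 symbol per replicate, open symbols at the left edge for a value of 0 and a dotted line at 1 RPKM. Endothelial markers, *Acta2*, *Tagln* and fibrillar collagens lie to the right of the line, most markers of neural and immune cells lie to its left, and *Krt8*, *Cdh1* and *Epcam* stand apart in replicate 2.

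Junction genes followed a steep order. In the tight junction list, 19 of 29 genes reached 1 RPKM, against 64.8% of all protein-coding genes. Claudin-5 was by far the main claudin transcript, 17.2 ± 2.51 times that of *Cldn12*. Of 18 claudin rows, 5 reached 1 RPKM. *Cldn12* was at 7.23, 6.25 and 6.68 RPKM and *Cldn1* at 1.53, 1.54 and 2.04 RPKM, while *Cldn4* (0.674, 7.29 and 1.05) and *Cldn6* (0.711, 5.39 and 1.76) owed their mean to replicate 2. *Ocln*, occludin, was at 10.99, 11.7 and 13.6 RPKM and stayed 9.54 ± 0.269 times lower than *Cldn5* in the replicates. The scaffold *Cgnl1*, paracingulin, (80.9 ± 8.35 RPKM) and the adhesion molecule *F11r*, JAM-A, (62.1 ± 4.88) lay between *Ocln* and *Cldn5*. *Lsr*, the tricellular junction protein angulin-1 and a barrier marker in brain vessels, was at 0.601, 1.26 and 0.758 RPKM, and *Marveld2*, tricellulin, at 0.484 ± 0.107.

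Adherens junction genes were higher as a list, with a median of 17.9 RPKM against 3.01 for the tight junction list. Their list of 24 genes, which also holds gap junction genes, had 17 members at 10 RPKM or more. *Ctnnb1*, beta-catenin, was at 218, 232 and 230.2 RPKM, with a CV of 3.45% between replicates. *Vcl*, vinculin, was at 129 ± 10.1 RPKM, *Ctnna1* at 110.1 ± 9.17 and *Ctnnd1*, p120-catenin, at 80.0 ± 4.58. *Gm28635* overlaps *Ctnnd1* on the same strand at a mean of 109.9 RPKM, so the level of *Ctnnd1* is uncertain. The mesenchymal cadherin *Cdh2* was at 15.1, 13.4 and 11.1 RPKM, with *Cdh5* 39.2 ± 12.3 times higher. *Cdh11* (30.5 ± 2.23 RPKM) and *Cdh13* (27.6 ± 2.64) were also above 10 RPKM. The connexins *Gja4* (17.9 ± 2.53 RPKM), *Gja1* (15.2 ± 2.93) and *Gja5* (13.1 ± 3.13) had overlapping ranges. Protocadherin rows numbered 69, of which 24 reached 10 RPKM, and the clustered members share exons, so their single levels are uncertain.

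The carriers of the blood-brain barrier ranged from well-expressed genes to a few reads. Of 34 listed carriers and receptors, 10 reached 10 RPKM, 14 lay between 1 and 10 and 10 lay under 1. Over all 16787 protein-coding genes, 3934 reached 10 RPKM and 64.8% reached 1. *Slc2a1*, the glucose transporter GLUT1, was at 33.3, 30.6 and 43.9 RPKM (36.0 ± 7.03). *Slc3a2* and *Slc7a5*, the heavy and light chains of the large neutral amino acid exchanger, were at 26.8, 28.2 and 25.8 and at 14.5, 13.2 and 15.9 RPKM. *Lrp1*, an endocytic receptor, was at 50.6, 50.5 and 36.6 RPKM, lowest in replicate 3, and the glutamine carrier *Slc38a2* led the list at 49.6, 53.5 and 60.9. *Tfrc*, the transferrin receptor that brings iron into the brain, was at 7.21, 7.42 and 7.79 RPKM. The taurine transporter *Slc6a6* (25.1 ± 5.77 RPKM) and the sphingosine-1-phosphate exporter *Spns2* (22.3 ± 3.88) lay between *Tfrc* and *Slc2a1*.

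Some other carriers of brain capillaries, chosen after their values were seen, were low, unlike *Slc2a1* and *Slc7a5*. *Mfsd2a*, the lysolipid transporter that restrains transcytosis, was at 0.290, 0.474 and 0.347 RPKM. *Slco1c1*, a thyroid hormone carrier, had 4, 3 and 1 reads, and *Slco1a4*, an organic anion transporter, had 13, 21 and 9 reads. *Slc22a8*, another organic anion transporter, was at 0.375, 0.0779 and 0.0222 RPKM and the thiamine carrier *Slc19a3* at 0.266, 0.248 and 0.311. The lactate carrier *Slc16a1* was at 3.39 ± 0.352 RPKM. Over the whole solute carrier family, 186 of 344 rows reached 1 RPKM and 45 reached 10.

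Efflux pumps were present at moderate levels in all 3 cultures. *Abcg2*, the breast cancer resistance protein, was at 9.37, 11.7 and 10.6 RPKM. *Abcb1a*, the main P-glycoprotein gene of mouse brain endothelium, was at 7.80, 8.92 and 10.4 RPKM and its paralog *Abcb1b* at 4.28, 4.92 and 4.13. These paralogs are close in sequence, so their split is uncertain. *Abca1*, a cholesterol exporter, was at 10.8 ± 0.349 RPKM, *Abcc4* at 5.35 ± 0.320 and *Abcc1* at 7.04 ± 0.354. In total, 11 of 12 listed pumps reached 1 RPKM, and the median over the list was 6.85 RPKM against 6.74 RPKM over all protein-coding genes at 1 RPKM or more.

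**Figure D3:**
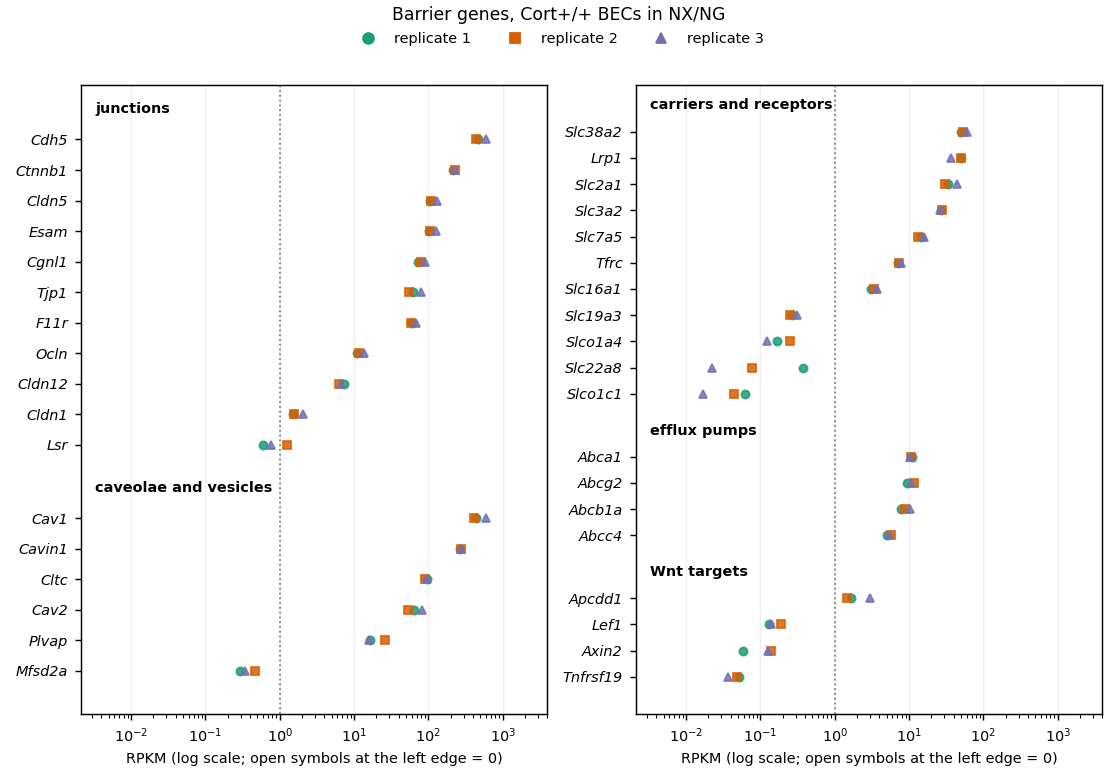
RPKM (log scale) of junction, vesicle, carrier, efflux and Wnt target genes in each of 3 *Cort*+/+ BEC libraries under NX/NG, with 1 symbol per replicate and a dotted line at 1 RPKM. *Cdh5* and *Cav1* exceed 100 RPKM, efflux pumps lie near 10, and *Mfsd2a*, *Slco1c1*, *Lef1* and *Axin2* lie under 1 in every replicate.

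Of 37 genes in the list of brain endothelial identity and Wnt signalling, 25 reached 1 RPKM and 14 reached 10. Over all 16787 protein-coding genes, 10873 reached 1 RPKM and 3934 reached 10. The receptors and co-receptors that brain endothelium uses were expressed, with *Fzd6* at 48.8 ± 5.96 RPKM, *Fzd4* at 12.6 ± 1.80, *Lrp5* at 13.3 ± 1.24 and *Lrp6* at 8.53 ± 0.542. *Adgra2* and *Reck*, which together recognise the ligands Wnt7a and Wnt7b, were at 101 ± 6.01 and 6.35 ± 0.661 RPKM. Identity genes such as *Itm2a* (35.2 ± 4.34 RPKM) and *Ly6a* (99.3 ± 24.4) were also above 10 RPKM. Several general targets of the pathway were under 1 RPKM. *Lef1* was at 0.130, 0.191 and 0.138 RPKM, *Axin2* at 0.0593, 0.138 and 0.126 and *Tnfrsf19* at 0.0516, 0.0482 and 0.0366. *Apcdd1*, a further target, was at 1.65, 1.46 and 2.99 RPKM, highest in replicate 3. The factors *Foxf2* (8.90 ± 0.244 RPKM) and *Foxq1* (0.957 ± 0.239), which mark brain endothelium, lay near or below 10 RPKM. Of 16 rows for the ligands themselves, 3 reached 1 RPKM.

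Caveolar genes were among the highest of the profile. *Cav1*, which encodes the coat protein of caveolae, was at 439.9, 413 and 601 RPKM (485 ± 102), highest in replicate 3. *Cavin1*, its partner in the coat, was at 271, 277 and 275 RPKM with a CV of 1.15%. *Cav2* (66.8 ± 14.7 RPKM), *Cavin2* (54.6 ± 8.72) and *Ehd2* (118 ± 7.73) were also high. *Cav3*, the muscle form, had no read, which with 3 reads allowed per library leaves at most 0.225 RPKM. Clathrin pathway genes were expressed too, with the heavy chain *Cltc* at 94.3 ± 2.71 RPKM and the adaptor subunit *Ap2m1* at 47.5 ± 1.45. *Cav1* stood 1374 ± 448 times above *Mfsd2a*, a ratio that rests on 8, 14 and 9 reads of *Mfsd2a*.

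Genes of vessel growth were prominent. *Apln*, the peptide apelin made by tip cells, was at 366, 289 and 647 RPKM (434 ± 188) and its receptor *Aplnr* was at 0.281 ± 0.123. *Angpt2*, the angiopoietin that destabilises vessels, was at 210.0, 189.5 and 302 RPKM. *Angpt1*, its counterpart from mural cells, was at 0.799, 0.833 and 0.750 RPKM. *Pgf*, placental growth factor, was at 113, 79.8 and 172 RPKM and *Vegfa* at 9.06, 9.79 and 7.06. *Apln*, *Angpt2* and *Pgf* shared their order, lowest in replicate 2 and highest in replicate 3. *Esm1* (37.3 ± 5.98 RPKM), *Mcam* (151 ± 24.6), *Pdgfb* (70.3 ± 11.7) and the chemokine receptor gene *Cxcr4* (63.3 ± 20.1), all markers of sprouting cells, were above 10 RPKM. Of 27 tip and angiogenic genes, 20 reached 10 RPKM, and their summed level was 2362, 2255 and 3107 RPKM.

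The VEGF and angiopoietin receptors were present at moderate levels. *Kdr*, VEGF receptor 2, was at 15.9, 25.0 and 19.1 RPKM and *Flt1*, VEGF receptor 1, at 7.89, 10.4 and 8.29, with a ratio of 2.25 ± 0.205. *Flt4*, VEGF receptor 3, was at 14.3 ± 1.12 RPKM, the neuropilins *Nrp1* and *Nrp2* at 16.4 ± 1.27 and 10.7 ± 0.976, and the angiopoietin receptor *Tek* at 11.9 ± 1.38. Its relative *Tie1* was at 84.96 ± 6.90 RPKM.

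Arterial, venous and capillary markers were found together. On the arterial side, *Mgp*, an inhibitor of calcification and of BMP, was at 179, 218 and 239 RPKM. The Notch ligand gene *Dll4* was at 33.6, 29.2 and 43.7 RPKM, *Jag1* at 26.9, 37.9 and 28.1 and the receptor *Notch4* at 30.3, 28.4 and 40.5. *Efnb2*, *Sema3g* and *Unc5b* were at 36.3 ± 0.962, 32.4 ± 2.47 and 37.3 ± 2.78 RPKM, whereas the late arterial gene *Gkn3* was at 0.345 ± 0.137 and the Notch target *Hey2* at 0.536 ± 0.0903. On the venous side, *Vcam1* was at 53.2, 70.7 and 60.2 RPKM, *Icam1* at 28.9, 49.5 and 24.4 and *Ephb4* at 15.7, 17.2 and 15.2. *Icam1* was highest in replicate 2, and *Selp*, P-selectin, showed the same order at 5.47, 9.54 and 3.99 RPKM. *Ackr1* (0.654 ± 0.486 RPKM) and *Lrg1* (0.322 ± 0.126), found in venules, were under 1. Capillary markers were at 10 RPKM or more in 4 of 11 genes, led by *Cxcl12* at 69.0 ± 9.93 RPKM. Bulk libraries do not tell whether 1 cell or different cells carried these markers, and fewer cells of a type cannot be told apart from less RNA per cell.

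Matrix genes were abundant. The 25 basement membrane genes, *Fn1* and *Sparc* included, held 2.25% ± 0.106% of the protein-coding RPKM, and 7 of them exceeded 100 RPKM. *Col4a1* and *Col4a2*, which are transcribed from a shared promoter region and form the collagen IV trimer, were at 504, 525 and 565 and at 409, 431 and 484 RPKM, in a steady ratio of 1.21 ± 0.0330. *Hspg2*, perlecan, was at 154 ± 11.3 RPKM, *Col18a1* at 157 ± 14.9 and *Nid1* at 133 ± 12.2. The laminin chains were *Lamb1* (65.8 ± 3.57 RPKM), *Lamc1* (60.8 ± 6.35), *Lama4* (33.2 ± 6.81) and *Lama5* (16.7 ± 1.48), the alpha-4 and alpha-5 chains being those of endothelium. *Lama2* (2.28 ± 0.408 RPKM), the chain of astrocyte and mural membranes, was lower. *Col4a3* (1.13 ± 0.524), *Col4a4* (0.199 ± 0.0932) and *Lama3* (0.1001 ± 0.0852), chains of other tissues, were near or under 1.

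Interstitial matrix added 1.79% ± 0.118% of the protein-coding RPKM. The matricellular genes *Ccn2* and *Ccn1*, targets of the YAP pathway, were at 471, 569 and 536 and at 345, 396 and 373 RPKM. *Tnc*, tenascin-C, was at 249.5 ± 13.3 RPKM, *Bgn* at 192 ± 22.8 and *Fbln2* at 164 ± 42.3. The metalloprotease inhibitors *Timp2* and *Timp1* were at 471 ± 51.2 and 131 ± 15.9 RPKM. The proteases *Plau* (73.1 ± 13.3 RPKM), *Mmp2* (72.6 ± 10.4) and *Mmp14* (35.4 ± 5.36) were lower, and *Mmp9* was at 0.0230, 0.0430 and 0.171. Of 41 collagen rows, 22 reached 1 RPKM and 4 reached 100.

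Every one of the 39 actin cytoskeleton genes reached 10 RPKM, and 25 reached 100. The list held 4.83% ± 0.0356% of the protein-coding RPKM, with little spread between the replicates. *Actg1* was at 520.0, 514 and 500.1 RPKM and the ratio of *Actb* to it was 2.31 ± 0.0854. *Cfl1*, cofilin, was at 340.3 ± 13.5 RPKM, the filamin *Flna* at 339 ± 9.82, *Tpm4* at 261 ± 9.65 and the myosin light chains *Myl9* and *Myl6* at 249 ± 11.9 and 158 ± 4.92. *Cnn2*, a calponin, was at 205 ± 8.65 RPKM. The lowest member, *Ezr*, was at 16.2 ± 2.21 RPKM.

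Promoters of this list were searched for the CArG box, the site of serum response factor, which bounds a run of A or T by CC and GG. Of 35 members with a promoter in the RefSeq table, 4 held it in the 250 bases before the start, or 11.4%, against 1.62% of all genes in that table. The 4 stretches of 70 bases are printed because they show the element in abundant transcripts, in GRCm38.p6, 5′ to 3′ on the gene's strand (minus for *Actg1* and *Myl6*, plus for *Cnn2* and *Myl9*), with the CArG box in capitals.
*Actg1*, chr11:120348546-120348615: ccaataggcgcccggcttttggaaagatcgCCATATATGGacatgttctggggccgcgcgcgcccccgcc
*Cnn2*, chr10:79988514-79988583: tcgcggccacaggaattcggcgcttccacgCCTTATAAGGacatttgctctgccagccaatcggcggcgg
*Myl6*, chr10:128493020-128493089: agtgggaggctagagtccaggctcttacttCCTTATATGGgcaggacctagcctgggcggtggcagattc
*Myl9*, chr2:156775273-156775342: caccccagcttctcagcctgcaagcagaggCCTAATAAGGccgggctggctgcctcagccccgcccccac
The box begins 90, 56, 50 and 161 bases before the start in *Actg1*, *Cnn2*, *Myl6* and *Myl9*. The match is a description of the letters and not evidence of binding. The box was in none of 27 endothelial identity promoters, from 45 listed genes, and none of 8 of smooth muscle markers, from 12. It was in none of 23 of barrier carriers, from 36, and 1 of 16 of basement membrane genes, from 25. Listed genes without a promoter in that table, *Tagln* and *Actb* among them, were not searched. GGAAGT, a form of the site of ETS factors, was in 33.3% of the endothelial identity promoters and 31.4% of those of the actin list, against 22.2% of all genes in the table, both strands read.

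Genes of mural cells ranged from *Acta2* and *Tagln*, which were high, to several under 1 RPKM. *Acta2*, smooth muscle actin, was at 1054, 1079.7 and 844 RPKM and *Tagln*, SM22, at 670.2, 679 and 591 RPKM. Both were lowest in replicate 3. *Cnn1*, calponin-1, was at 13.2, 16.4 and 11.98 RPKM, and *Myh11*, the myosin heavy chain of differentiated smooth muscle, at 1.56, 1.45 and 1.21, which put *Acta2* 706 ± 33.9 times above it. *Des* was at 0.202 ± 0.145 RPKM, *Myocd* at 0.113 ± 0.0558, and *Pln* had no read, which allows up to 0.0943 RPKM. *Actg2* and *Smtn* (mean 44.2 RPKM) ranked between *Tagln* and *Cnn1*, and *Mylk* had a mean of 3.90 RPKM. Of 12 smooth muscle markers, 9 reached 1 RPKM and 5 reached 10. The summed level of the 12 was 1852, 1873 and 1551 RPKM. Among pericyte markers, 5 of 12 reached 1 RPKM and the sum was 22.0, 26.8 and 21.8 RPKM. *Pdgfrb* was at 12.1, 13.5 and 12.6 RPKM and *Cspg4*, NG2, at 3.55, 4.08 and 4.13. The pericyte potassium channel subunits *Kcnj8* and *Abcc9* had 1, 1 and 0 and 0, 1 and 0 reads.

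Fibrillar collagens were clearly present. *Col1a1* was at 155, 166 and 113 RPKM, *Col1a2* at 55.5, 56.5 and 42.9 and *Col3a1* at 60.7, 54.9 and 35.9. All 3 were lowest in replicate 3, in which *Cdh5* was highest. *Thy1* was at 12.5, 6.76 and 12.7 RPKM, lowest in replicate 2, and *Prrx1* at 9.93 ± 1.49. *Pdgfra* (0.366, 0.319 and 0.320 RPKM), *Dcn* (1.05, 0.978 and 0.876), *Lum* (0.0333 ± 0.00217) and *Dpt* (0, 1 and 0 reads), which define fibroblasts of the brain's borders, were under or near 1 RPKM. Of 17 fibroblast markers, 9 reached 1 RPKM, and the sum ran to 314, 309.8 and 229 RPKM. Whether endothelial cells or a small number of other cells carried these transcripts was not tested.

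Most markers of neural and blood cells lay under 1 RPKM. *Aqp4*, the water channel of astrocyte endfeet, had no read in any library, which allows up to 0.0417 RPKM, and *Gfap* had 0, 6 and 3 reads. *Gja1* (15.2 RPKM) was the only astrocyte-list gene at 10 RPKM or more, and endothelial cells express it too. *Rbfox3*, the neuronal antigen NeuN, had 1, 1 and 0 reads and *Snap25* was at 0.0834 ± 0.00655 RPKM, while the tubulin gene *Tubb3* stood at 9.46 ± 1.65. Microglia and macrophage markers reached 1 RPKM in 4 of 15 genes, neuronal markers in 2 of 12 and astrocyte markers in 3 of 10. None of 8 oligodendrocyte markers reached 1 RPKM. *Ptprc*, the pan-leukocyte CD45, had 1, 3 and 0 reads and *C1qb* none, which allows up to 0.239 RPKM. The 4 at or above 1 included *Tmem119*, used as a microglial marker in brain, at 9.79, 11.05 and 11.1 RPKM. *Hbb-bs*, beta globin, had no read.

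Epithelial genes stood apart in replicate 2. *Krt18* was at 3.80, 26.0 and 3.38 RPKM and *Krt8*, its keratin partner, at 0.125, 18.7 and 0.443. *Cdh1*, E-cadherin, was at 0.0357, 2.89 and 0.0569 RPKM and *Epcam* at 0, 1.94 and 0. In reads, *Krt8* had 3, 482 and 10, *Cdh1* 2, 174 and 3 and *Epcam* 0, 56 and 0. These 4 genes were thus at or near 0 in replicates 1 and 3, except *Krt18*, and measurable in replicate 2. *Krt19*, by contrast, was at 11.6, 9.07 and 6.59 RPKM, lowest in replicate 3. The summed level of the 15 epithelial and choroid plexus markers was 30.9, 88.1 and 30.4 RPKM, and that of the 19 keratin rows 17.6, 62.2 and 13.04. The choroid plexus gene *Ttr* was at 0.493 ± 0.207 RPKM and *Clic6* at 13.1, 12.4 and 15.9. Endothelial identity genes summed to 2548, 2771 and 3205 RPKM in the same libraries.

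Inflammatory genes were selectively expressed in the resting cultures. *Ccl2*, the monocyte chemokine, was at 219, 256 and 290.0 RPKM and *Cx3cl1*, fractalkine, at 15.9, 26.8 and 16.8. *Cxcl12* was at 60.1, 67.1 and 79.7 RPKM, *Csf1* at 59.8 ± 8.47 and *Mif* at 101 ± 3.63. The cytokines of acute inflammation were near 0, with *Il6* at 0.134, 0.188 and 0.214 RPKM, *Il1b* at 0, 1 and 1 reads and *Tnf* at 0, 2 and 0 reads. *Sele*, E-selectin, was at 1.29, 2.95 and 1.07 RPKM. Class I antigen presentation was represented by *B2m* (429, 435 and 585 RPKM), *H2-D1* (74.5 ± 13.9) and *H2-K1* (53.9 ± 11.7), genes that share sequence with other class I loci. Class II was close to absent, with *Cd74* at 0.0981 RPKM and its regulator *Ciita* at 0.0422. Of 24 interferon-stimulated genes, 19 reached 1 RPKM, against 64.8% of all protein-coding genes. At 10 RPKM or more were 5 of the 24, against 3934 of all 16787 protein-coding genes. *Ifitm3* (159.8 ± 15.2), *Ifitm2* (123 ± 8.31) and *Bst2* (97.9 ± 15.4) stood at the top and *Mx1* (0.0143) and *Mx2* (0.0776) at the bottom. Of the 19 at 1 RPKM or more, 16 were highest in replicate 3, as were 1631 of the 3934 protein-coding genes at 10 RPKM or more. After an equal sum over all rows the counts were 3 of the 19 and 69 of the 3934. With total reads as the scale they were 9 and 430, and after an equal sum over protein-coding genes 15 and 1247. *Gm45717* overlaps *Ifitm2* on the same strand at a mean of 125 RPKM, so the level of *Ifitm2* is uncertain.

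Genes of vascular tone and of clotting covered a wide range. *Edn1*, the vasoconstrictor endothelin-1, was at 136, 160.0 and 165 RPKM, its converting enzyme *Ece1* at 148 ± 11.6 and the endothelial nitric oxide synthase *Nos3* at 27.1, 32.3 and 34.1. *Ptgs2*, the inducible cyclooxygenase, was at 71.9, 87.4 and 56.5 RPKM and *Ptgis*, prostacyclin synthase, at 35.5 ± 5.17. The endothelin receptors *Ednra* (0.459 ± 0.0272 RPKM) and *Ednrb* (0.456 ± 0.04995) were under 1. The anticoagulant receptors *Procr* and *Thbd*, thrombomodulin, were at 94.8, 126 and 104 and at 84.4, 57.9 and 62.5 RPKM. *F3*, tissue factor, was at 19.2, 21.4 and 12.3 RPKM and the fibrinolysis activator *Plat* at 9.41 ± 1.24.

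The TGF-beta and BMP pathway was represented by all 27 listed genes at 1 RPKM or more. *Acvrl1*, the endothelial receptor ALK1, was at 103 ± 13.1 RPKM, *Tgfbr2* at 57.6, 42.3 and 77.0 and the ligand *Bmp4* at 27.3, 43.5 and 31.5. The target genes *Id3* and *Id1* were at 83.8, 101 and 71.8 and at 43.4, 53.1 and 45.4 RPKM. *Tgfbr1* was at 5.06, 4.96 and 4.99 RPKM with a CV of 0.968%.

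Genes of glycolysis and of the cell cycle were expressed throughout. *Pkm* was at 249.6, 236 and 247 RPKM, *Gapdh* at 216, 204 and 211 and *Ldha* at 155, 145 and 156, the last 10.05 ± 1.09 times above *Ldhb*. Hexokinase was mainly *Hk1* (23.04 ± 2.21 RPKM), and *Hk2* was at 2.50 ± 0.411. *Pfkfb3*, a driver of endothelial glycolysis, was at 7.195, 5.82 and 8.37 RPKM. All 19 genes of the hypoxia list reached 1 RPKM and 9 reached 10. *Epas1*, the endothelial HIF-2 alpha gene, was at 105 ± 17.0 RPKM, the peptide gene *Adm*, adrenomedullin, at 54.0 ± 14.1, *Hif1a* at 40.8 ± 4.90 and the collagen prolyl hydroxylase gene *P4ha1* at 24.5 ± 0.601, while *Pdk1* (3.83 ± 0.755), *Ankrd37* (3.24 ± 0.766) and *Car9* (1.53 ± 0.226) were the lowest. Every one of 32 cell cycle genes reached 1 RPKM. *Mki67* was at 12.5, 14.6 and 13.01 RPKM, *Top2a* at 15.03, 16.8 and 14.3, *Ccnd1* at 141, 173 and 212 and the inhibitors *Cdkn1a* at 94.5, 94.9 and 92.8 and *Cdkn2a* at 19.4, 18.6 and 14.9. The ferritin genes *Ftl1* and *Fth1* (208 ± 10.2 RPKM), *Prdx1* (168 ± 6.79) and *Hmox1* (143 ± 8.598) led the antioxidant list, and *Sod2* was at 2.98 ± 0.175.

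Translation genes had the least spread of the lists with 10 or more genes at 1 RPKM. The 90 cytosolic ribosomal protein rows held 6.93% ± 0.202% of the protein-coding RPKM, and the median CV of those at 1 RPKM or more was 2.80%. It was 3.20% for translation factors, 3.51% for proteasome subunits, 5.01% for the actin cytoskeleton and 14.8% for endothelial identity genes. Tip and angiogenic genes had a median CV of 16.04%, and interstitial matrix genes one of 16.8%. These list values cover members at 1 RPKM or more, and over all protein-coding genes at that level the median CV was 6.91%. Over the 3934 protein-coding genes at 10 RPKM or more it was 5.23%. The single genes of least spread were *Ap2s1* (43.9, 43.9 and 43.9 RPKM), *Alg10b* (16.2, 16.2 and 16.2), *H2az2* (10.1, 10.2 and 10.1) and *Sp1* (10.1, 10.1 and 10.1). The CV of each of the 4 lay below its own counting error, as it did for 1065 of the 3934 protein-coding genes at 10 RPKM or more.

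**Figure D4:**
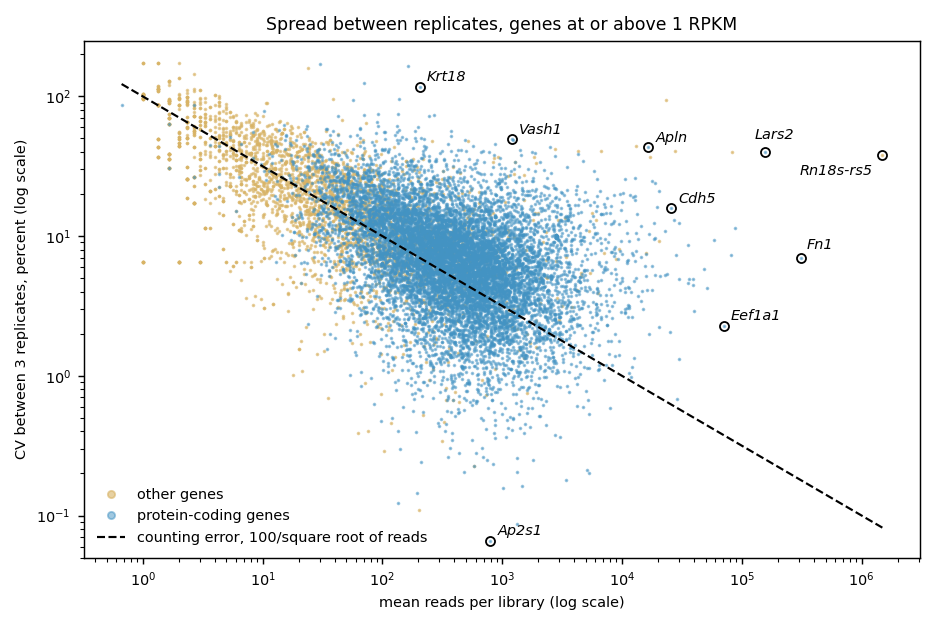
CV between the 3 *Cort*+/+ NX/NG replicates in percent (log scale) against mean reads per library (log scale), 1 point per gene at or above 1 RPKM, with a dashed line for counting error. Most protein-coding genes lie near the line, whereas *Apln*, *Cdh5*, *Lars2* and *Rn18s-rs5* lie well above it at high reads.

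Over the 13746 genes at 1 RPKM or more, the median CV was 8.004% and the median of the counting error, which is 100 divided by the square root of the reads, was 5.95%. From 1 to 10 RPKM the median CV was 9.50% against 7.74% by counting. At 100 RPKM or more it was 5.44% against 1.43%. The median CV was therefore above the median counting error in both ranges, and by more among abundant genes.

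Genes with the widest spread were mostly short RNAs when all rows were ranked, as 14 of the 15 widest at 10 RPKM or more were under 200 bases. The exception was *Krt18*. Among protein-coding genes at 10 RPKM or more, 144 (3.66%) had a CV of 20% or more, and the genes named next were chosen from them after their values were seen. *Vash1*, an angiogenesis inhibitor made by endothelial cells, was at 34.7, 21.7 and 58.9 RPKM, with a CV of 49.2%. *Trp53i11* was at 27.9, 14.2 and 41.3 RPKM and *Sparcl1*, an endothelial and astrocyte matrix protein, at 48.2, 31.4 and 71.7. *Mfap3l* was at 26.0, 19.7 and 45.0 RPKM, *Angptl4* at 14.6, 9.13 and 19.2 and *Nox4*, an NADPH oxidase, at 26.2, 17.2 and 37.3. All 6 were lowest in replicate 2 and highest in replicate 3 under each of the 4 scalings, as *Apln* and *Pgf* were.

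Other genes were highest in replicate 2. *Clec14a*, a receptor of tumour and growing vessels, was at 18.5, 36.4 and 19.1 RPKM. *Serpinb6b* was at 54.5, 67.7 and 29.7 RPKM and *Cxcl16* at 11.99, 19.9 and 12.4. *Icam1*, *Cx3cl1*, *Plvap*, *Vwf* and *Selp* were likewise highest in replicate 2. Of the 144 genes, 59 were lowest in replicate 2 and highest in replicate 3 (41.0%), a combination found in 21.4% of all 3934. Highest in replicate 2 were 43 of the 144, against 1161 of all 3934. After an equal sum over all rows the first count was 37 and the second 63, against 41 and 3708 of all 3934. With total reads as the scale they were 51 and 48, against 153 and 2947. After an equal sum over protein-coding genes they were 58 and 43, against 642 and 1314. Replicate 2 also had the lowest share of *Rn18s-rs5* reads and the highest keratin sum, and their part in these differences was not tested.

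**Figure D5:**
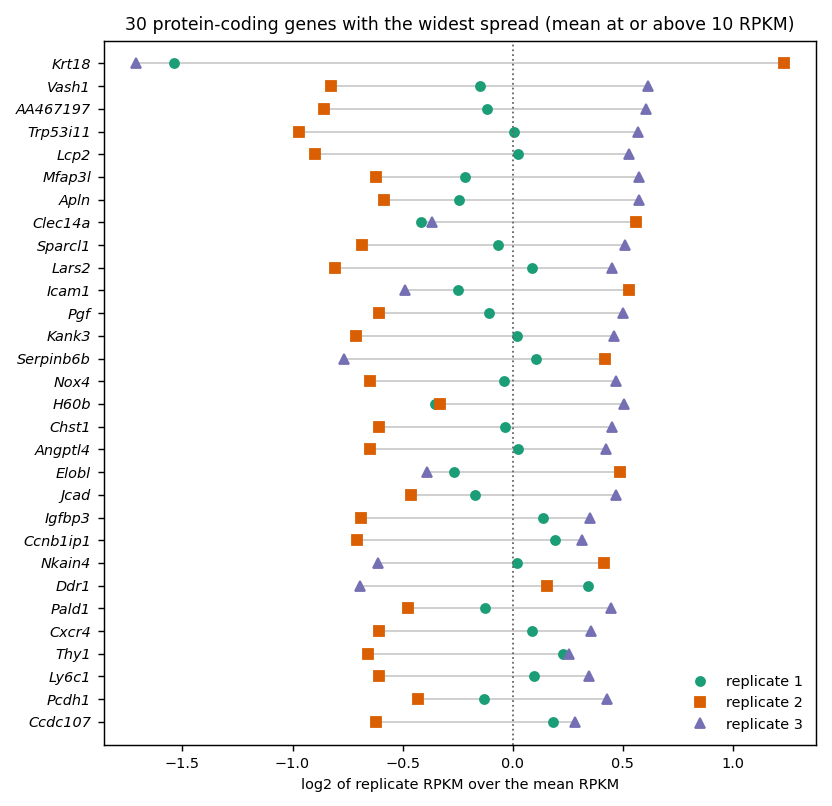
Log2 of each replicate's RPKM over the mean of 3 replicates for the 30 protein-coding genes with the widest CV at a mean of 10 RPKM or more, with 1 symbol per replicate. Replicate 3 is highest and replicate 2 lowest in 22 of them, and replicate 2 is highest in 6, *Krt18* and *Icam1* among them.

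The cortistatin system was low in these *Cort*+/+ cells. None of the 5 listed genes read here reached a mean of 1 RPKM, and *Cort* itself was close to the floor. *Cort* lies at chr4:149125034-149126763 of GRCm38 on the minus strand, and it had 2, 1 and 1 reads, or 0.241, 0.112 and 0.128 RPKM, below the 0.384 RPKM that 3 reads would give. The somatostatin receptor gene *Sstr4* was at 1.09, 0.962 and 0.731 RPKM from 19, 18 and 12 reads, and *Sstr2* was at 0.533, 0.320 and 1.17 RPKM from 14, 9 and 29 reads. *Sstr1* had 0, 1 and 0 reads. *Ghrl*, the gene of ghrelin, was at 1.06, 0.423 and 0.964 RPKM. *Sst*, *Sstr3*, *Sstr5* and *Ghsr* were not analysed here. At this depth the level of *Cort* could not be told from 0 in single libraries, and the order of *Sstr4* and *Sstr2* changed between replicates. The paper reports *Cort* expression in primary wild-type BECs by qPCR and cortistatin in BEC culture medium by ELISA. Both are other measures than read counts.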

How the data were processed

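RNA-seq was made by the authors from primary BECs with a stranded mRNA kit and paired-end reads, and the labels and methods differ on kit, input and read length. Reads were run through the authors' reanalyzerGSE pipeline, and the submitters' processing notes name edgeR. The aligner, counter, genome build and annotation are not given in the sources used here. The deposited RPKM values, scaled by the authors over the normoxia libraries together, were used for the 3 *Cort*+/+ libraries only. Other columns hold the authors' own comparisons and other groups and were not used. Multiplied by gene length, 100% of the values above 0 were whole numbers of a library's smallest unit (tolerance 0.05), and reads were recovered from this.

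Mean, SD (n = 3) and CV were computed in Python 3 with pandas and numpy on the RPKM as deposited, and no test was made, since no groups were compared. Biotypes came from GENCODE vM21 by symbol, matching 94.9% of genes. Genes were named by rule: markers, the 30 highest overall and the 30 highest outside ribosomal and mitochondrial genes, up to 8 highest and 5 lowest per list, and the 15 widest and narrowest CVs at 10 RPKM or more. Further list members named for their role were chosen after their values were seen. Members and lists were chosen with earlier results of these data known. An upper limit for 0 reads is 3 reads in the library with the lowest scaling total, and covers counting error only. The computations of level and spread were tested on simulated data. Some list members are not reported here.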

Additional observations from a re-analysis of the deposited data

How the results depend on the processing

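The number of genes at 1 RPKM or more stayed within 1.5 times of 13746 under every alternative tried, from 10873 over protein-coding genes only to 16546 after rescaling each library to an equal sum of RPKM. The median CV of 8.004% moved to 5.73% at 10 RPKM or more, 6.91% over protein-coding genes (added after seeing the data), 22.8% without a filter and 18.3% after rescaling to an equal sum of RPKM, in which ribosomal RNA sets the scale. Leaving out a replicate gave 5.78% to 7.04%, each from fewer values and so not directly comparable with a CV of 3 replicates. The 100 highest genes other than ribosomal RNA held 41.2% ± 7.07 of the RPKM, 50.8% with ribosomal RNA kept, 23.03% in reads and 28.1% over protein-coding genes (added after seeing the data). The marker sum of 350.2 RPKM became 876 after such rescaling, on another scale. The lowest replicate correlation of 0.959 was 0.979 with a pseudocount of 1, 0.962 without a filter and 0.959 to 0.962 without a replicate. The rescalings of the order of replicates given with the marker genes and the widest genes were added after seeing the data. No paired analysis was possible because no test was made. With 3 replicates from pooled mice, SDs are themselves imprecise, genes under about 3 reads per library could not be told from 0, and rows under 200 bases or with overlapping neighbours have uncertain RPKM.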

Other observations

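Genes of protein folding and secretion were abundant and steady. Of 26 listed genes 22 reached 10 RPKM, with a median CV of 4.18% over those at 1 RPKM or more. *Hsp90ab1*, a cytosolic chaperone, was at 558, 568 and 543 RPKM in replicates 1, 2 and 3, *P4hb*, protein disulfide isomerase, at 283, 301 and 274 and *Serpinh1*, the collagen chaperone HSP47, at 262, 263 and 244. The stress-induced *Hspa1a* was at 0.495, 0.436 and 0.234 RPKM and *Hspa1b*, its near-identical copy, at 2.27, 1.68 and 1.48, a split that is uncertain. Among immediate early genes, *Ier3* (66.9 ± 1.21 RPKM) and *Klf6* (60.7 ± 2.44) were the highest, and *Fos* (2.04 ± 0.268), *Egr2* (0.347 ± 0.0944) and *Fosb* (0.206 ± 0.0509) were low.

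The IGF axis was represented by its binding proteins more than by its ligands. *Igfbp7*, a matrix protein of tumour and cultured vessels, was at 345, 369 and 436 RPKM, *Igfbp4* at 91.7, 73.5 and 77.7 and *Igfbp3* at 60.1, 33.9 and 69.8. *Igf2*, the imprinted growth factor, was at 2.64, 1.98 and 4.98 RPKM and *Igf1* at 0.675, 0.715 and 1.04. *Gm49394* overlaps *Igf2* on the same strand at a mean of 3.71 RPKM, so the level of *Igf2* is uncertain. The imprinted non-coding *H19* was at 27.8 ± 9.43 RPKM, and *Malat1*, a nuclear RNA, at 257, 213 and 237. Complement components were low, with *C3* at 0.365, 0.799 and 0.371 RPKM, whereas the regulators *Clu*, clusterin, and *Cd59a* were at 17.99, 29.6 and 19.9 and at 15.3, 17.1 and 18.5.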
